A study of Mus musculus with 6 samples.

Results

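Lyz1 and Lyz2 are the mouse lysozyme genes, and they were described here with 8 other genes that lie near them on chromosome 10: Frs2, Yeats4, Cpsf6, Cpm, Mdm2, Slc35e3, Nup107 and Rap1b. These 10 genes were taken by name from a table of 16519 genes, and all 10 had enough counts to be tested. The lysozyme genes were chosen by their measured levels, which differ between the genotypes compared below, and the neighbours by their position, with results of the same libraries known. Values of KO against WT are therefore given for these 10 genes as a description, with no test of their own.

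RNA was sequenced in bulk from macrophages that had been differentiated in culture from the bone marrow of mice (BMDMs). The group called KO (3 libraries) came from Trmt61af/fLysmCre mice, in which both floxed copies of Trmt61a meet a Cre recombinase, and the group called WT (3 libraries) came from Trmt61af/f mice, which carry the same floxed gene without Cre. The labels give no age, sex, number of Cre copies or stimulus, nor whether each library stands for its own mouse or culture, so p-values measure only the spread between libraries, which may be technical. KO and WT differ both in Cre at the Lyz2 locus and in Trmt61a, and these cannot be told apart.

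The targeted gene was checked first. Trmt61a, the catalytic subunit of the enzyme that makes N1-methyladenosine in tRNA, stood at 0.530, 0.755 and 0.539 CPM (a gene's counts scaled to the size of the library) in KO 1, KO 2 and KO 3 and at 4.96, 3.89 and 5.06 CPM in WT 1, WT 2 and WT 3. It was lower in every KO library, and Trmt6, its partner subunit, averaged 23.9 ± 0.633 CPM over the KO libraries against 24.3 ± 2.48 CPM over WT (SD, n = 3). The libraries held between 37021855 and 41033179 counts, where 3 counts of a gene correspond to between 0.0730 and 0.0813 CPM. Macrophage markers were abundant in every library, with 12 of 12 listed genes above 1 CPM and a summed level from 15039 to 16983 CPM in KO and from 15359 to 16397 CPM in WT. Over all genes, 4 of 12605 passed the edgeR quasi-likelihood test at a Benjamini-Hochberg adjusted p under 0.05, and such genes are referred to as called; they were Trmt61a, Cd163, Lyz1 and Lyz2.

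Lysozyme is an enzyme that cuts the peptidoglycan of bacterial cell walls. In the mouse it is made from a pair of neighbouring genes: Lyz2, also known as lysozyme M, is the form of macrophages and other myeloid cells, and Lyz1, also known as lysozyme P, is best known from the Paneth cells of the intestine. The LysM-Cre allele is a knock-in in which Cre is placed at the start of the Lyz2 coding sequence, so that the Lyz2 promoter drives Cre, and a modified copy no longer makes lysozyme from its own start codon. Of the neighbours, Mdm2 restrains p53, Cpsf6 belongs to the machinery that cuts and polyadenylates mRNA, Yeats4 reads acetylated histones, and the others act in growth factor signalling, cell adhesion, nuclear pores, peptide cleavage and transport.

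The sequences of both lysozyme genes are shown because the pair is so similar, and because the start codon of Lyz2 is where the Cre allele is built. Both genes lie on the minus strand of chromosome 10 (GRCm38, the assembly of mm10), Lyz2 at 117277541 to 117282272 and Lyz1 at 117287795 to 117292868, with 5.5 kb between them. The 24 bases around each start codon are given 5′ to 3′ with the ATG in capitals, at chr10:117282231-117282254 for Lyz2 and chr10:117292827-117292850 for Lyz1.
Lyz2: cctccagtcaccATGaagactctc
Lyz1: cctccagtcaccATGaaggctctc

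The 250 bases before the RefSeq start of each gene follow, 5′ to 3′ on the minus strand, at chr10:117282273-117282522 for Lyz2 and chr10:117292869-117293118 for Lyz1. Capitals mark GGAA or its reverse complement TTCC, the core of the sites that ETS factors such as the myeloid factor PU.1 bind.
Lyz2: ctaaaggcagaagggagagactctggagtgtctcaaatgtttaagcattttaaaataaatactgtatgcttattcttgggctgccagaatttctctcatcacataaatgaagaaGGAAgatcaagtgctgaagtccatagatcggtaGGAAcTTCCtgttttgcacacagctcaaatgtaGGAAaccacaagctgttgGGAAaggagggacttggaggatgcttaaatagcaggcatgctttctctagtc
Lyz1: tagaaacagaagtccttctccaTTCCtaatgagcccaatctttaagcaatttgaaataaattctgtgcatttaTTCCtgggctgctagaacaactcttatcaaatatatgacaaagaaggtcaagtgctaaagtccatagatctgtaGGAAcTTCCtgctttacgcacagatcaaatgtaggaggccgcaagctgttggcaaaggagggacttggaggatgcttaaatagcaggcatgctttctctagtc

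The last 50 bases before the start were identical in both promoters, and over the whole window 200 of 248 aligned bases were the same, which is 80.6%. GGAA was found 5 times before Lyz2 and 4 times before Lyz1 on either strand, where the median over 32851 RefSeq promoter windows of this length was 3 and 93.4% held at least 1. Windows with 5 or more made up 18.0% of all, and windows with 4 or more made up 33.4%. CCAAT was found once before Lyz1 and not before Lyz2, and 33.8% of windows held it. TATAAA was in neither window and in 12.4% of all windows, while TTAAATA, searched after both sequences had been read, was in both and in 4.18% of all. These matches describe letters in a window and say nothing about which factors bind there.

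The coding sequences of Lyz1 and Lyz2 are 447 bases each and are identical at 425 of them (95.1%), and the whole GENCODE transcripts are identical at 96.0% of 1262 aligned bases. The longest run without a difference is 118 bases. Of all stretches of 50 bases in the Lyz1 transcript, 16.1% also occur in Lyz2, and of stretches of 100 bases 2.06% do, whereas none of 150 bases does. A read that falls inside such a stretch cannot be assigned to either gene, and neither read length nor strand setting is given in the sources used here, so the counts of this pair are uncertain to that extent.

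Lyz2 was the lysozyme gene of these macrophages in both genotypes and stood at a lower level in KO. Its level was 18390, 21194 and 17037 CPM in WT 1, WT 2 and WT 3, and 10769, 9253 and 8488 CPM in KO 1, KO 2 and KO 3. Every KO library lay below every WT library, and the closest values of the genotypes were 6268 CPM apart. The means were 9503 ± 1161 CPM for KO and 18874 ± 2120 CPM for WT (SD, n = 3), so that KO held 50.4% of the WT level, with a fitted log2 fold change of -0.99 (standard error 0.10, 95% interval from -1.22 to -0.76).

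In WT 2 Lyz2 had more counts than any other gene, 2.12% of the library, and in WT 1 and WT 3 it ranked 2 among all genes. In the KO libraries it still ranked 6, 7 and 7, with 1.07%, 0.926% and 0.852% of the counts in KO 1, KO 2 and KO 3. Within each genotype the spread of Lyz2 was 12.2% of the mean in KO and 11.2% in WT, which is larger than that of most of its neighbours. The library with the most Lyz2 was KO 1 in KO and WT 2 in WT.

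Lyz1 went the other way and stayed a minor transcript. Its level was 35.0, 26.5 and 30.7 CPM in WT 1, WT 2 and WT 3, and 206, 197 and 176 CPM in KO 1, KO 2 and KO 3. Every KO library lay above every WT library by at least 141 CPM. The means were 193 ± 15.3 CPM for KO and 30.7 ± 4.24 CPM for WT (SD, n = 3), a 6.29-fold difference, with a fitted log2 fold change of 2.65 (standard error 0.10, 95% interval from 2.42 to 2.89). These values rest on 7206 to 7831 Lyz1 counts per KO library and 1056 to 1291 per WT library. Lyz2 had 678482 to 843873 counts per WT library. A given number of misassigned reads would therefore change the Lyz1 level far more than the Lyz2 level, most of all in WT. By counts, Lyz1 moved from ranks 5071 to 5862 in WT to ranks 932 to 1094 in KO.

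**Figure D1:**
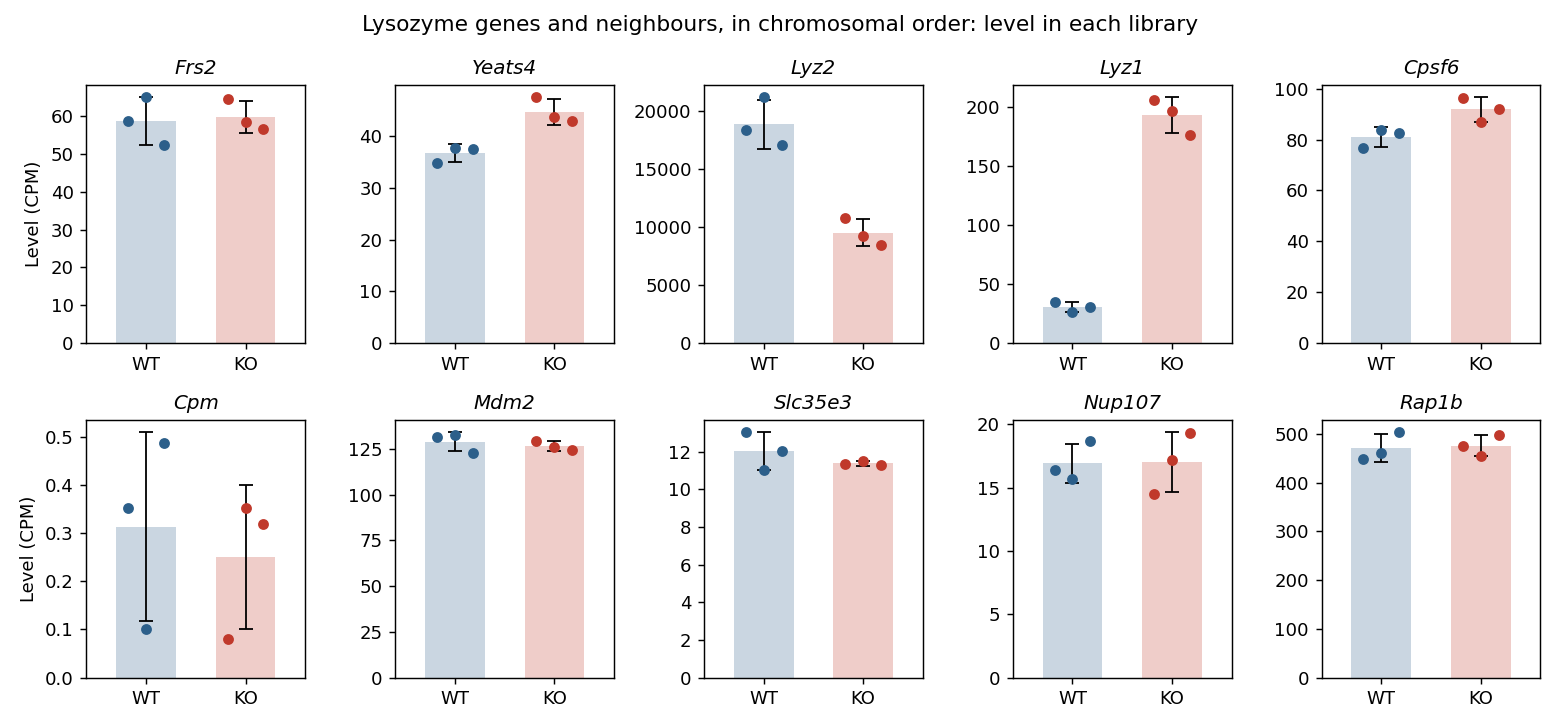
Level of each of the 10 genes in CPM (vertical axes, each from 0), with 1 point per library, bars for the mean and error bars for the SD of 3 libraries. Lyz2 lies between 8488 and 10769 CPM in KO, below all WT libraries, Lyz1 lies between 176 and 206 CPM in KO, above all WT libraries, and Yeats4 and Cpsf6 have KO points that all lie above the WT points.

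The makeup of the pair was described by the share of Lyz1 in the summed Lyz1 and Lyz2 counts of a library. That share was 0.190%, 0.125% and 0.18% in WT 1, WT 2 and WT 3, and 1.88%, 2.09% and 2.04% in KO 1, KO 2 and KO 3. The widest of the 95% Wilson intervals, which cover counting error only, ran from 1.99% to 2.08% in KO 3, and no interval of one genotype reached those of the other. Lyz2 outnumbered Lyz1 by 627 ± 150 counts to 1 in WT and by 49.1 ± 2.79 counts to 1 in KO (SD, n = 3). Each KO library had more Lyz1 counts and fewer Lyz2 counts than any WT library. How many counts of either gene came from the shared stretches was not tested.

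In absolute terms the gain of Lyz1 was small beside the loss of Lyz2. Mean Lyz1 was 163 CPM higher in KO and mean Lyz2 9371 CPM lower, so the gain came to 1.73% of the loss. Summed lysozyme transcripts stood at 9697 ± 1175 CPM for KO and 18905 ± 2118 CPM for WT (SD, n = 3), and KO held 51.3% of the WT sum. Without KO 1 this value was 47.9%, and without WT 2 it was 54.6%.

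**Figure D2:**
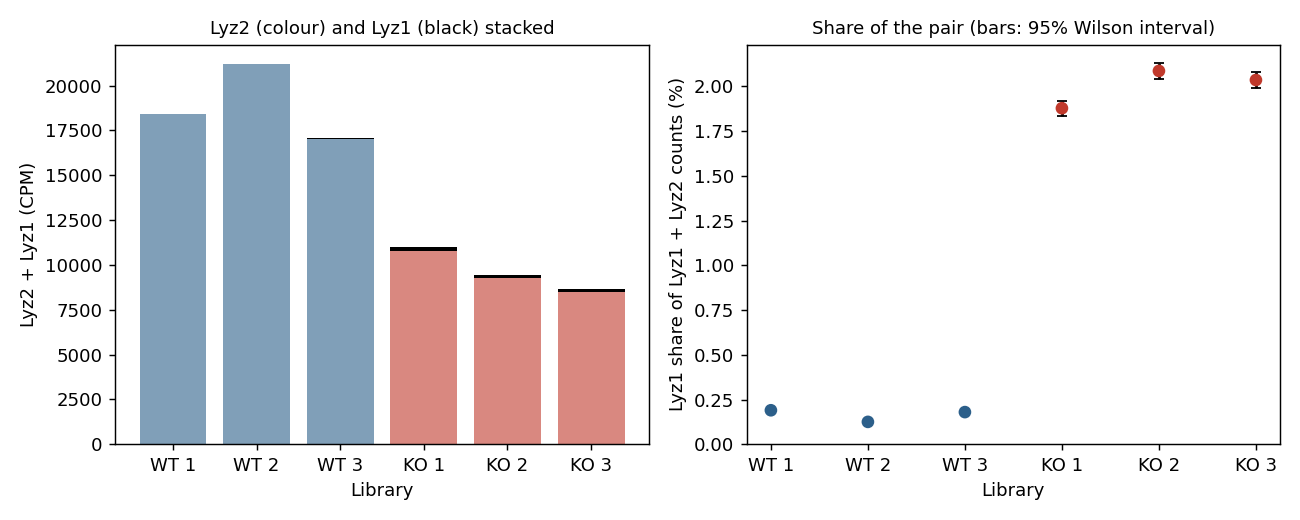
Left, Lyz2 (coloured) and Lyz1 (black) stacked in CPM for each library, from 0; right, the share of Lyz1 in the counts of the pair in percent, with 95% Wilson intervals. The summed level in KO is about that of Lyz2 alone, while the Lyz1 share lies between 1.88% and 2.09% in KO and between 0.125% and 0.190% in WT.

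In bulk RNA, fewer cells of a type and less RNA per cell cannot be told apart, so markers of other cell types are given beside these values. Summed markers of neutrophils and their precursors, which also express Lyz2, ranged from 1647 to 2638 CPM in KO and from 1675 to 3037 CPM in WT, with 14 of 14 markers above 1 CPM and 0 called (edgeR). Summed monocyte markers ranged from 1264 to 1484 CPM in KO and from 1134 to 1385 CPM in WT, with 7 of 8 markers above 1 CPM and 0 called. Both ranges overlapped between genotypes, and the part of these cells in the Lyz1 and Lyz2 levels was not tested.

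Within a genotype, the library with the most Lyz2 had the fewest neutrophil transcripts. KO 1 stood at 1647 CPM of neutrophil markers and at 224 CPM of 8 markers of dividing cells, a list added after the data were seen. WT 2 stood at 1675 and 233 CPM, and the other libraries at 2142 to 3037 CPM and at 289 to 402 CPM. KO 1 and WT 2 were also lowest in their genotype for stromal, endothelial and epithelial markers (104 and 102 CPM). They were highest in their genotype for macrophage markers (16983 and 16397 CPM) and monocyte markers (1484 and 1385 CPM). The part of dividing cells or of these other cell types in the Lyz2 level was not tested either.

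For other sites of Lyz1, the listed Paneth cell markers Defa24, Defa30, Defa17, Ang4, Mmp7 and Itln1, and Krt79 of the same list, were not in the table and were not analysed here. Car4, an alveolar macrophage marker, had counts in KO 1 only, at 0.0530 CPM, under the level of 3 counts. Marco, a scavenger receptor, ranged over 16.8 to 21.5 CPM in KO against 13.9 to 23.5 CPM in WT. Siglecf, a sialic acid receptor, stood at 1.62 to 1.81 CPM in KO and at 2.09, 2.64 and 4.99 CPM in WT 1, WT 2 and WT 3. Of all tested genes, 4.59% were likewise lower in KO without overlap. Dendritic cell markers summed to 3.87 to 5.43 CPM in KO and 4.50 to 5.50 CPM in WT, with 1 of 9 listed genes above 1 CPM. Of T, B and NK cell markers 1 of 9 lay above 1 CPM, which was Cd4, and their sum was 71.0 to 78.9 CPM in KO and 72.5 to 87.0 CPM in WT. Stromal, endothelial and epithelial markers summed to 104 to 236 CPM in KO and 102 to 158 CPM in WT, with 7 of 10 listed genes above 1 CPM. None of the tested markers of these lists was called.

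The members next to the lysozyme pair on both sides had slightly higher levels in KO, and neither was called. Yeats4, a subunit of chromatin complexes that reads acetylated histone tails, is the member nearest to Lyz2 on one side, 53 kb away (117215141 to 117224507, minus strand). It was at 34.8, 37.8 and 37.7 CPM in WT 1, WT 2 and WT 3, and at 47.6, 43.7 and 43.0 CPM in KO 1, KO 2 and KO 3. No KO library overlapped a WT library, and the closest values were 5.14 CPM apart. The means were 44.8 ± 2.49 CPM for KO and 36.8 ± 1.72 CPM for WT (SD, n = 3), a fitted 1.22-fold difference with a 95% interval from 1.09 to 1.36.

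Cpsf6, a subunit of the cleavage factor that guides where mRNAs are cut and polyadenylated, is the nearest beyond Lyz1, 62.4 kb from Lyz2 (117344667 to 117376998, minus strand). It was at 76.7, 84.0 and 82.5 CPM in WT 1, WT 2 and WT 3, and at 96.5, 86.9 and 92.2 CPM in KO 1, KO 2 and KO 3. The genotypes again did not overlap, but KO 2 and WT 2 were only 2.89 CPM apart. The means were 91.8 ± 4.83 CPM for KO and 81.1 ± 3.84 CPM for WT (SD, n = 3), a fitted 1.13-fold difference with a 95% interval from 1.03 to 1.25.

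The next members outward showed no such separation. Frs2, an adaptor that couples fibroblast growth factor receptors to Ras signalling, lies 129.1 kb from Lyz2 beyond Yeats4 (117070127 to 117148474, minus strand). It was at 58.8, 65.1 and 52.5 CPM in WT 1, WT 2 and WT 3 and at 64.7, 58.4 and 56.7 CPM in KO 1, KO 2 and KO 3, its log2 fold change being 0.03 (95% interval -0.16 to 0.22). The libraries of both genotypes were interleaved.

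On the other side, Cpm and Mdm2 lie 347.2 and 406.6 kb from Lyz2. Cpm (117629500 to 117687352, plus strand) encodes carboxypeptidase M, a membrane enzyme that trims basic residues from peptides and is used as a marker of macrophage maturation in human cells. It was hardly detected, with 3, 14 and 13 counts in KO 1, KO 2 and KO 3 and 13, 4 and 20 counts in WT 1, WT 2 and WT 3. Its log2 fold change of -0.31 had a 95% interval from -1.94 to 1.31, so neither direction could be told at this depth. Mdm2 (117688875 to 117710758, minus strand), the ubiquitin ligase that targets p53, ranged over 124 to 130 CPM in KO against 123 to 133 CPM in WT, its log2 fold change being -0.03 (95% interval -0.15 to 0.10).

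The 3 members farthest from Lyz2 also overlapped between genotypes. Slc35e3 (117733678 to 117746358, minus strand), an orphan member of a family of nucleotide-sugar transporters, ranged over 11.3 to 11.5 CPM in KO against 11 to 13 CPM in WT, its log2 fold change being -0.08 (95% interval -0.34 to 0.18). Nup107 (117750621 to 117792736, minus strand), a scaffold protein of the nuclear pore, ranged over 14.5 to 19.3 CPM in KO against 15.7 to 18.7 CPM in WT, its log2 fold change being 0.01 (95% interval -0.26 to 0.28). Rap1b (117814597 to 117845974, minus strand), a small GTPase that controls integrin adhesion, ranged over 454 to 497 CPM in KO against 449 to 504 CPM in WT, its log2 fold change being 0.01 (95% interval -0.13 to 0.15). Of the 8 neighbours, 7 had an interval within 1.5-fold in either direction, Cpm being the exception. In RefSeq, Yeats4 overlaps Gm31963 and Cpm overlaps the small nuclear RNA gene Gm25709, and with no strand setting stated their counts are uncertain to that extent.

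Across the 10 genes, 2 were called, Lyz1 and Lyz2, where 0.0317% of all tested genes were called, 0.00793% higher in KO (as Lyz1) and 0.0238% lower (as Lyz2). Since both were chosen for this contrast, nothing is read from that count. It fell to 1 without KO 2 or without WT 1, when Lyz2 was no longer called. KO and WT did not overlap for 4 of the 10 members, but Lyz1 and Lyz2 were chosen by these same levels, and nothing is read from that count either. Of the 8 neighbours, 2 did not overlap, Yeats4 and Cpsf6, where 8.65% of all tested genes did not. Both were higher in KO, as 4.05% of all tested genes were without overlap, while 4.59% were lower. These neighbours were listed with results of the same libraries known. Among the 8, 0 were called in edgeR, DESeq2 or limma voom, 5 lay above 0 and 3 below, and their median log2 fold change was 0.01, beside 8.37e-05 for all tested genes. The separation of Lyz1, Lyz2, Yeats4 and Cpsf6 was present under each of 5 scalings of the libraries. The TMM factors ran only from 0.996 to 1.004 and the scalings changed the levels little, so this adds little to the values above.

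To place the members among the other genes of the region, the genes whose start coordinate (the lower of each gene's coordinates) lies within 2 Mb of that of Lyz2 were taken from the RefSeq annotation. Apart from the members 21 such genes were in the table, and 11 of these were tested. None of the 11 was called in edgeR, DESeq2 or limma voom, and in edgeR 0 reached an unadjusted p under 0.05. Their median log2 fold change was -0.02, with 5 above 0 and 6 below. In none of them did the KO and WT libraries separate, and over 5 Mb they separated for 3 of 27 genes, Irak3, Llph and Xpot, beside the 8.65% of all tested genes that separated.

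The 5 nearest of these genes with at least 1 CPM were Cct2, Rab3ip, Cnot2, Mdm1 and Dyrk2. Cct2, a subunit of the chaperonin that folds actin and tubulin and lying on the side of Yeats4, averaged 133 ± 5.07 CPM over the KO libraries against 126 ± 6.48 CPM over WT (SD, n = 3) and had a log2 fold change of 0.07. Rab3ip, an exchange factor for Rab8, had -0.03, and Cnot2, a scaffold of the complex that shortens poly(A) tails, had -0.02. On the side of Cpsf6, Mdm1, a microtubule-binding protein gene, had 0.19 with a standard error of 0.13, and Dyrk2, a protein kinase gene, had -0.06. The lowest and highest values in the window were -0.77 for Gm32802, whose interval ran from -1.86 to 0.31, and 0.19 for Mdm1.

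**Figure D3:**
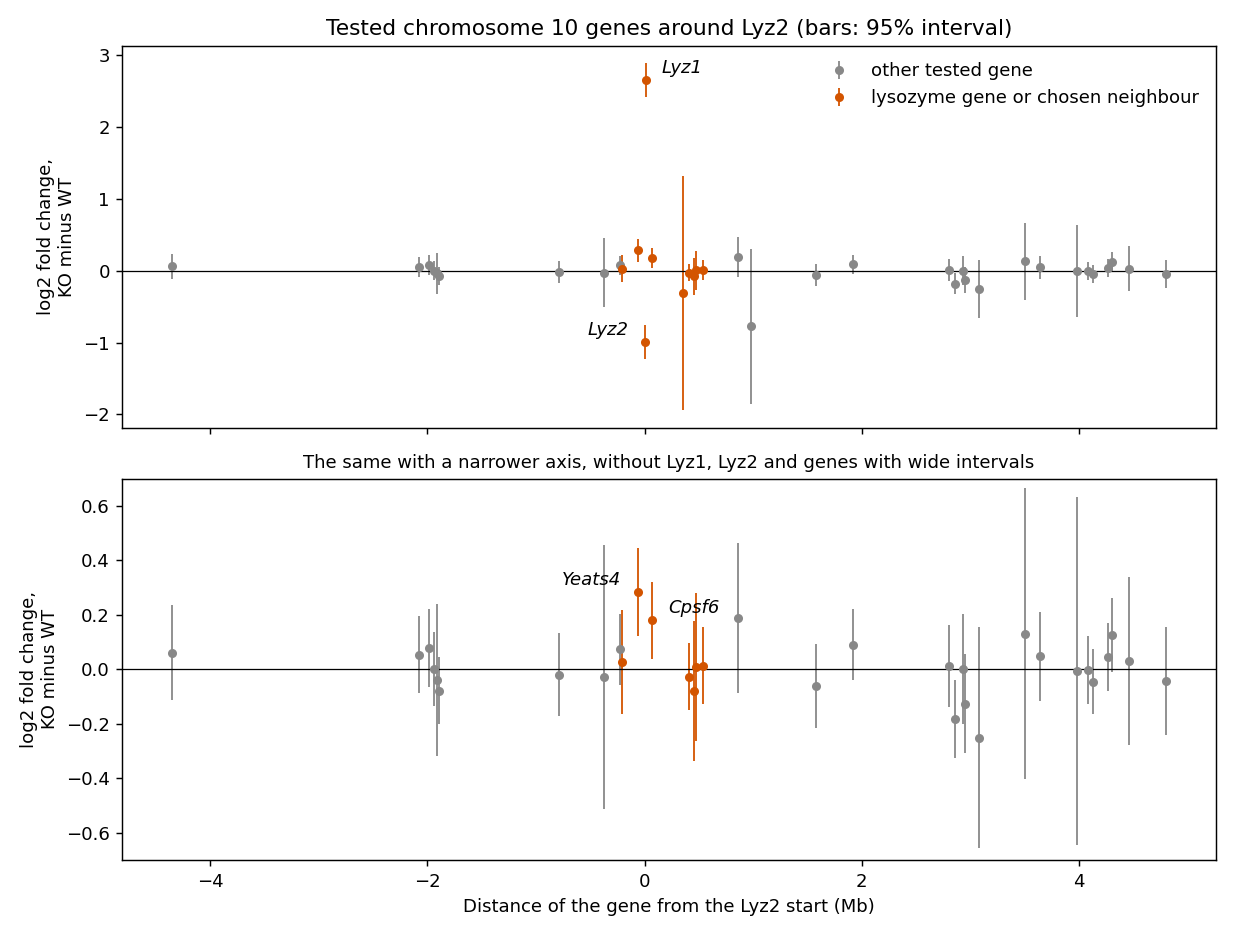
Log2 fold change of KO minus WT (vertical axis, with 95% intervals) for tested chromosome 10 genes within 5 Mb, against the distance of each gene from the start coordinate of Lyz2 in Mb; the lower panel repeats the data on a narrower axis without the lysozyme pair and genes with wide intervals. Lyz1 stands at 2.65 and Lyz2 at -0.99, Yeats4 and Cpsf6 at 0.28 and 0.18 on either side of them, and the other genes of the 2 Mb window lie between -0.77 and 0.19.

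Levels of different genes were compared per length, as CPM per kilobase of exon (RPKM), using the summed exon length of GENCODE M21. In WT the order of the mean RPKM levels was Lyz2 (14342 ± 1611, SD, n = 3), Rap1b (163 ± 10.1), Yeats4 (26.0 ± 1.21), Mdm2 (25.4 ± 1.05), Lyz1 (24.3 ± 3.35), Cpsf6 (7.71 ± 0.366), Frs2 (6.72 ± 0.720), Nup107 (4.39 ± 0.406), Slc35e3 (3.41 ± 0.289) and Cpm (0.0525 ± 0.0329). The ranges of Yeats4 and Mdm2, of Mdm2 and Lyz1, and of Cpsf6 and Frs2 overlapped, and the other neighbours in this order did not. In KO, Lyz2 (7221 ± 882 RPKM) stayed the highest, and Lyz1 (153 ± 12.1 RPKM) stood beside Rap1b (165 ± 7.45 RPKM), the only pair of neighbours in the KO order whose ranges overlapped.

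The members differed in how steady they were within a genotype. The SD of log2 CPM within genotypes was 0.05 for Mdm2, 0.07 for Cpsf6 and Yeats4, 0.08 for Rap1b and 0.09 for Slc35e3. It was 0.13 for Frs2, 0.16 for Lyz1, 0.17 for Lyz2 and for Nup107, and 0.93 for Cpm, which had few counts. The median of all tested genes was 0.13, and that of genes with at least 50 CPM was 0.08, below the values of Lyz2 and Lyz1.

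Genes with a pattern over the 6 libraries most like that of the lysozyme genes were sought among 11344 genes with at least 1 CPM. The measure was the root mean square difference between log2 CPM values, each gene centred on its own mean. For Lyz2, whose own deviation from its mean was 0.51, the nearest were Apod, a lipid-binding protein gene (0.16), Txlnb, a taxilin gene (0.20), and Tnfsf10, the gene of the death ligand TRAIL (0.20). These are far less abundant than Lyz2: Apod averaged 0.893 ± 0.216 CPM over the KO libraries against 1.78 ± 0.324 CPM over WT (SD, n = 3), and Tnfsf10 averaged 1.83 ± 0.241 CPM for KO and 3.55 ± 0.545 CPM for WT. None of the 3 was called. Txlnb lies on chromosome 10 as well, but is not among the genes within 5 Mb of Lyz2.

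For Lyz1 the nearest genes were farther away. Its own deviation was 1.34, and Dctd and Trpc6, which were among the 3 nearest genes, were both 0.87 away. Dctd, a deaminase gene of nucleotide metabolism, averaged 1.93 ± 0.114 CPM for KO and 0.971 ± 0.428 CPM for WT (SD, n = 3). Trpc6, a cation channel gene, averaged 1.74 ± 0.484 CPM over the KO libraries against 0.792 ± 0.118 CPM over WT. Neither was called.

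Genes that share a family or a pathway with the members, and some others, were described by 10 lists, of which 203 genes were tested. In total 0 of the 203 were called in edgeR, DESeq2 or limma voom, 7 had an unadjusted p under 0.05 in edgeR, where 3.1% of all tested genes did, and the medians of the lists lay between -0.04 and 0.05 on the log2 scale. The 3 genes with the smallest p of each list among those with at least 1 CPM are named, and other partners are named for their role, chosen after their values were seen. Values given for these genes without a unit are log2 fold changes of KO minus WT.

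**Figure D4:**
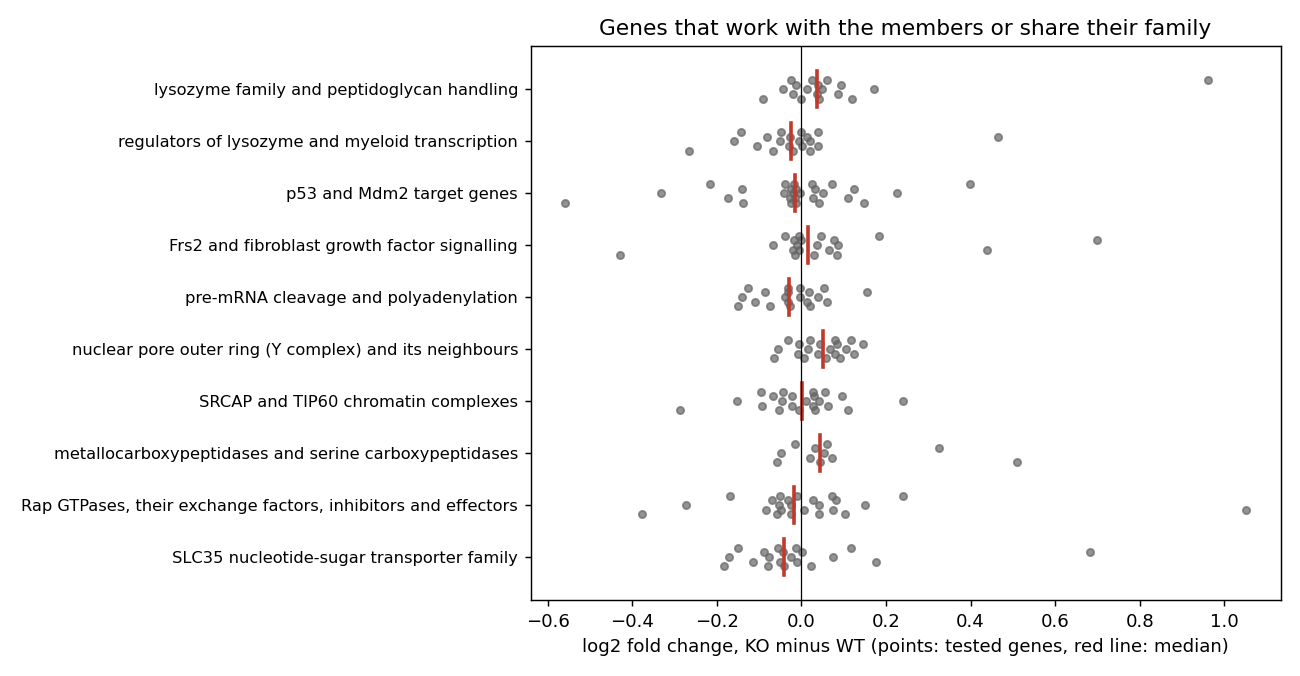
Log2 fold change of KO minus WT (horizontal axis) for the tested genes of 10 lists related to the members, 1 point per gene, with the median of each list as a red line. The medians lie between -0.04 and 0.05, and no gene shown was called.

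The list tested first held lysozyme-like genes and genes that sense or clear peptidoglycan. It also held other genes, among them Camp, Ltf, Lcn2, Slpi, Aoah and Oat. Of 18 tested, 12 lay above 0 and 6 below, with a median of 0.04 that ran from 0.01 without WT 2 to 0.08 without KO 1. Slc15a3, a lysosomal transporter of bacterial muropeptides, averaged 473 ± 31.4 CPM over the KO libraries against 420 ± 17.0 CPM over WT (SD, n = 3). Its log2 fold change was 0.17. Of the 18 genes, Slc15a3 was the 1 whose libraries did not overlap between genotypes, beside 8.65% of all tested genes. Lyzl4, a lysozyme-like gene, averaged 1.6 ± 0.238 CPM over the KO libraries against 0.826 ± 0.526 CPM over WT, with 0.96 and a standard error of 0.46, and KO 1 (1.33 CPM) lay below WT 1 (1.41 CPM). Nagk, the kinase that salvages N-acetylglucosamine, had 0.12, and Nod2, the sensor of muramyl dipeptide, had -0.09, the lowest value of the list.

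Transcription factors of the myeloid lineage and of lysozyme genes formed the next list. Of 20 tested, 7 lay above 0 and 13 below, with a median of -0.02. Spi1, which encodes PU.1, had a log2 fold change of -0.02, and Cebpa, a partner factor in myeloid cells, had 0.02. Runx3 averaged 3.37 ± 0.619 CPM over the KO libraries against 2.45 ± 0.325 CPM over WT (SD, n = 3), with 0.46 and a standard error of 0.25. Cebpb and Nfe2l2, which respond to inflammation and to oxidative stress, had -0.14 and -0.08.

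Around Mdm2, 28 genes of the p53 pathway were tested, with 11 above 0, 17 below and a median of -0.01. Trp53 itself had 0.03, Mdm4, the relative of Mdm2 that also restrains p53, had 0.04, and Cdkn1a and Ccng1, which p53 induces together with Mdm2, both had -0.01. Pmaip1, which encodes the cell death protein Noxa, averaged 9.42 ± 1.01 CPM over the KO libraries against 11.9 ± 1.67 CPM over WT (SD, n = 3), with -0.33 and a standard error of 0.14. Btg2 and Zmat3, both p53 targets, had -0.14 and -0.22.

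Around Frs2, 20 genes of fibroblast growth factor signalling were tested, with 10 on each side of 0 and a median of 0.01. Frs3, the close relative of Frs2, averaged 3.55 ± 0.779 CPM over the KO libraries against 4.79 ± 0.711 CPM over WT (SD, n = 3), with -0.43 and a standard error of 0.23. Grb2, the adaptor that binds Frs2, had -0.04, Spred2, an inhibitor of Ras signalling, had 0.18, and Cbl, a ubiquitin ligase of receptor turnover, had 0.07.

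Cpsf6 works in cleavage factor I, one part of the machinery that forms the ends of mRNAs. Of 20 genes of cleavage and polyadenylation, 7 lay above 0 and 13 below, with a median of -0.03. Nudt21, which forms the core of the factor, had -0.03, and Cpsf7, the alternative large subunit, had -0.09. Wdr33 and Cstf3, which belong to the complexes that recognise the polyadenylation signal and the downstream element, had -0.14 and -0.15, and Papolg, a poly(A) polymerase gene, had -0.13. In the whole list 3 genes, those just named, lay lower in KO with no overlap and 1 lay higher, beside 4.59% and 4.05% of all tested genes.

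Yeats4 is a subunit of the SRCAP and TIP60 complexes. The list held genes of these complexes and Mllt1, Mllt3 and Yeats2, relatives of Yeats4 that belong to other complexes. Of 22 tested genes of the list 11 lay on each side of 0, with a median of 0.00187. In this list 1 gene lay higher in KO with no overlap and 3 lay lower, beside 4.05% and 4.59% of all tested genes. Ruvbl2, an ATPase of both complexes, averaged 23.0 ± 1.98 CPM over the KO libraries against 19.5 ± 0.411 CPM over WT (SD, n = 3) and had a log2 fold change of 0.24. Dmap1 averaged 12.1 ± 1.19 CPM over the KO libraries against 14.8 ± 1.03 CPM over WT, with -0.29, and Znhit1, which helps to deposit the histone variant H2A.Z, had -0.15. Kat5, the acetyltransferase of TIP60, had -0.09.

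Around Nup107, 20 genes of the nuclear pore were tested, with 15 above 0, 5 below and a median of 0.05, and without KO 3 this median was -0.01. Nup133 and Nup85, which sit with Nup107 in the outer ring, had -0.01 and 0.01. Ahctf1, which starts pore assembly on chromatin, averaged 65.2 ± 3.31 CPM over the KO libraries against 59.8 ± 1.51 CPM over WT (SD, n = 3), with 0.12, and Nup205 and Sec13 had 0.15 and 0.08.

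Rap1b belongs to a family of GTPases with a large set of regulators, of which 24 genes were tested, 11 above 0 and 13 below, with a median of -0.02. Rap1a, the closest relative, had 0.03. Rapgef5, an exchange factor, averaged 18.1 ± 1.12 CPM over the KO libraries against 21.9 ± 0.818 CPM over WT (SD, n = 3), with -0.27 and a standard error of 0.09. Rassf5, an effector that links Rap1 to integrins, had -0.17, and Rapgef2, another exchange factor, had 0.15. These 3 had an unadjusted p under 0.05 (0.0117, 0.0322 and 0.0362), but none passed the edgeR test after adjustment. In the whole list the libraries did not overlap for 5 genes, 3 higher and 2 lower in KO, beside 8.65% of all tested genes.

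The remaining lists belong to Cpm and Slc35e3. Of 11 tested carboxypeptidase genes 8 lay above 0, with a median of 0.04. Cpd, a relative of Cpm in the secretory pathway, had -0.02, and Ctsa and Scpep1, serine carboxypeptidases of lysosomes and other vesicles, had 0.04 and 0.06, while Aebp1 had 0.33 with a standard error of 0.27. Of 20 tested SLC35 transporter genes 6 lay above 0 and 14 below, with a median of -0.04. Slc35a3, Slc35c1 and Slc35e2 had -0.12, -0.15 and -0.17, and Slc35e1, a relative of Slc35e3, had -0.01. In each of the SLC35, p53 and nuclear pore lists, 1 gene lay higher in KO with no overlap and 1 lay lower. In the Frs2 list 2 lay higher and 0 lower. The myeloid factor and carboxypeptidase lists had 0, beside 8.65% of all tested genes.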

How the data were processed

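Raw counts of reads were deposited for every gene in 1 table. The submitters' processing notes name fastp, HISAT2, HTSeq and the build mm10, while versions, annotation, strand setting and filters are not stated in the sources used here. Groups and replicate numbers came from the sample titles. Same-genotype libraries differed by 11.4 to 34.2 chi-square units per degree of freedom, which is more than counting noise; this does not show that they came from separate mice or cultures.

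The counts were analysed with edgeR 4.0.16 (R 4.3.3): TMM factors, filterByExpr with a minimum count of 10, quasi-likelihood fits (robust, legacy mode) and Benjamini-Hochberg adjustment over 12605 genes at 0.05. CPM values use TMM-scaled library sizes. The standard error of a log2 fold change was taken from its F statistic. RPKM values divide CPM by the exon length of GENCODE M21. Of 16519 genes 16438 matched RefSeq (GRCm38.p6) by Entrez Gene ID, and all 10 members had a RefSeq promoter sequence. The steps were also run on simulated counts with planted differences, and no result given here rests on that run.

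The members and lists were chosen with earlier results of these data known. By rule, named genes are the members, Trmt61a and Trmt6, every gene called over all genes, the 5 nearest other genes with at least 1 CPM, the 3 smallest p of each list, and the 3 genes nearest in pattern, of which 1 is not reported here. Cell markers, the extremes of a list or window, the separated genes within 5 Mb and the pathway partners were named outside this rule, after their values were seen. Alternatives were other normalizations, filters, tests (DESeq2 1.42.0, limma voom 3.58.1), a replicate block and leaving out libraries.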

Additional observations from a re-analysis of the deposited data

How the results depend on the processing

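The number of genes called over all genes was 4 and became 16 with DESeq2 and 8 with the replicate number as a block (replicate block); it ran from 3 to 6 when libraries were left out. Of the 10 members, 2 were called, and 1 to 2 when libraries were left out, the lower number arising without KO 2 and without WT 1, where Lyz2 was lost; the number was also 2 with the replicate block. The cause was not tested. Same-numbered libraries did not deviate together in every pair (r across genes of 0.03, -0.13 and 0.25), and KO 1 went best with WT 2 (0.30), so the number was treated as a name. Over 17 alternatives the log2 fold change of Lyz1 ran from 2.51 to 2.76, of Lyz2 from -1.09 to -0.90, of Yeats4 from 0.24 to 0.31 and of Cpsf6 from 0.14 to 0.22. Those of Frs2, Nup107, Rap1b and Cpm changed sign under some of them, all within the spread between libraries. Cpm was not tested under the stricter filter (minimum count 50). Median log2 fold changes changed sign under at least 1 alternative for the 2 Mb window (-0.03 to 0.03) and for the p53 (-0.04 to 0.04), Frs2 (-0.00293 to 0.07), nuclear pore (-0.01 to 0.09), SRCAP and TIP60 (-0.03 to 0.00532) and Rap (-0.03 to 0.01) lists, and not for the other 5 lists. The Lyz1 share ran from 1.96% to 2.08% in KO and from 0.152% to 0.185% in WT. The 2 Mb window and the 10 lists kept 0 called genes under every alternative tried, including windows of 0.5, 1 and 5 Mb. Depth limits the statement on Cpm, with at most 20 counts, while the other members had at least 427.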
